A study of Mus musculus with 1989 samples.

Results

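The cells described here were 150 dividing thymocytes with the highest level of G2/M genes among 1993 cells of 1 droplet-based scRNA-seq library. They were chosen by measured values in 2 steps. The 160 cells with the highest mean of Eif5a, Mif, Ran, Npm1 and Ranbp1, called biosynthetic blasts here, were first set aside. Of the others, the 150 cells with the highest mean deposited log2 value over Ube2c, Cenpa, Ccnb2, Cenpf and Cdc20 were taken and are called G2/M cells. They made up 7.53% of all cells (95% interval, exact binomial, 6.41 to 8.77%). The study profiled thymocytes of C57BL/6 mice by scRNA-seq and by scATAC-seq. The scRNA-seq library was made from thymus of male mice of 7 weeks with no genetic change or treatment named. The labels tie no cell to an animal, and the library therefore counts as 1 sample: there is no replicate, no test was run, SDs are spreads over cells and intervals cover counting error only. The scATAC-seq cells were not used here.

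T cells mature in the thymus through ordered stages. Double-negative (DN) cells that have rearranged a TCRβ chain pass through an immature single-positive (ISP) stage and become double-positive (DP) cells with both CD4 and CD8. DP blasts (DPblas) divide rapidly, then leave the cell cycle and rearrange the TCRα chain as small DP cells (DPres), before selection by self-peptides. In G2 a cell that has copied its DNA prepares to divide. In M phase, cyclin B with Cdk1 drives entry, the spindle captures chromosomes at kinetochores, and the anaphase-promoting complex with Cdc20 marks cyclin B and securin for destruction.

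The genes of the selection serve different steps of this sequence. Ccnb2 encodes a B-type cyclin. Cenpa is the histone H3 variant that marks the centromere, and Cenpf binds the outer kinetochore. Cdc20 activates the anaphase-promoting complex, and Ube2c is the ubiquitin-conjugating enzyme that works with it. Their promoters are shown because all 5 genes define the cells. Sequences are those of RefSeq in build GRCm38.p6, from 250 bases before to 50 bases after the annotated start, 5′ to 3′ on the strand of the gene. Capitals mark TTTGAA, a cell cycle homology region (CHR) known to be bound by MuvB complexes, and CCAAT, known to be bound by NF-Y, on either strand. A further CHR, TTCGAA, was also searched on both strands. The windows were chr2:164769679-164769978 (plus strand) for Ube2c, chr5:30666636-30666935 (plus strand) for Cenpa, chr9:70421505-70421804 (minus strand) for Ccnb2, chr1:189688037-189688336 (minus strand) for Cenpf and chr4:118437294-118437593 (minus strand) for Cdc20.
Ube2c: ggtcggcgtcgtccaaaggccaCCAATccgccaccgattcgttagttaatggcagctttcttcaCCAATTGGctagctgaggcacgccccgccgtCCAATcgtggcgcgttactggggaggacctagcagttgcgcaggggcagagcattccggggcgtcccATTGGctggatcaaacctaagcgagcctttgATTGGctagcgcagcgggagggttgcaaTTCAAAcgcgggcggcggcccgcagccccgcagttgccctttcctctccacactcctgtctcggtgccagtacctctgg
Cenpa: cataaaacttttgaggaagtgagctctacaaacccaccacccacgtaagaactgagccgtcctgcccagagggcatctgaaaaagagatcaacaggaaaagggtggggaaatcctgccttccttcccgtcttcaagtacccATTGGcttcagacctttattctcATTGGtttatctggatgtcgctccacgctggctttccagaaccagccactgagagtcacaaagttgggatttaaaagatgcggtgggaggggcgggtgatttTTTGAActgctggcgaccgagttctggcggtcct
Ccnb2: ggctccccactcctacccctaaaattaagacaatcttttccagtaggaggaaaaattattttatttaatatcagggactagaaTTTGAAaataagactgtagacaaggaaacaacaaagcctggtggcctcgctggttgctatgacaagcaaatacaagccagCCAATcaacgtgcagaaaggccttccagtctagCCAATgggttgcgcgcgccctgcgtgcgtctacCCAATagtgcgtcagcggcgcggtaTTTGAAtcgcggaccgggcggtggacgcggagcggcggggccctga
Cenpf: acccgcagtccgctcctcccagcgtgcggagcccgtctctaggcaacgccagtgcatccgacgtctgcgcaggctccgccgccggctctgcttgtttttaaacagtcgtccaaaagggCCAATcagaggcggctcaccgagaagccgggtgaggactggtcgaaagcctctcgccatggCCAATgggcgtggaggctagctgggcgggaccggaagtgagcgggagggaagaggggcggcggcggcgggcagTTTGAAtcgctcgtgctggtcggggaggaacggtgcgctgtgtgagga
Cdc20: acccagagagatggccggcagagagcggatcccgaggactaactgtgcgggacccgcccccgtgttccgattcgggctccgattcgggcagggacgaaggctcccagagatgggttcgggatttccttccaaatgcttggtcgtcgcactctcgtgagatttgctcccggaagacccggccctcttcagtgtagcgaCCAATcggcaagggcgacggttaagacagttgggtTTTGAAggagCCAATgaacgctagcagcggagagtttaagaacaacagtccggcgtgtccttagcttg

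Each of the 5 promoters held TTTGAA and at least 2 copies of CCAAT, whereas none held TTCGAA. The TTTGAA match nearest to the start lay 29 bases from it in Ube2c, 16 in Cenpa, 4 in Ccnb2, 2 in Cenpf and 18 in Cdc20. In Ube2c 2 of the 6 CCAAT matches, on opposite strands, overlapped each other. Of all 32851 RefSeq promoters of this length, 17.9% held TTTGAA, 1.56% held TTCGAA, 37.4% held CCAAT and 6.95% held both TTTGAA and CCAAT. Among the 145 other mitosis genes of the lists described further on, 136 were expressed enough to be compared, and 111 of these had a promoter in the table. Of their 128 promoters, 47.7% held TTTGAA, 64.1% held CCAAT and 35.2% held both. For 42 DNA replication genes with 51 promoters, the shares were 15.7, 52.9 and 9.80%. For all 3752 genes compared with S-phase cells that had a promoter in the table, they were 13.5, 38.9 and 6.26% of 4806 promoters. Thus TTTGAA was found in a larger share of mitosis promoters than of replication promoters, and CCAAT was frequent in both. A match is a description of the letters and not a binding site, and promoters of 1 gene can overlap.

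The selection score had no gap at its edge. The mean of the 5 genes was 2.22 in the lowest member, 2.61 in the median member and 3.49 in the highest. The highest cell outside had 2.22, and 2.26 and 2.16 were reached 10 cells inside and 10 cells outside the cut. All 5 genes were above 0 in 149 members, and 4 of them in 1 member. Among cells outside the biosynthetic blasts, 148 nonmembers also had all 5 genes above 0, so the cut lay within a continuous range. A total of 2 biosynthetic blasts reached the score of the lowest member.

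**Figure D1:**
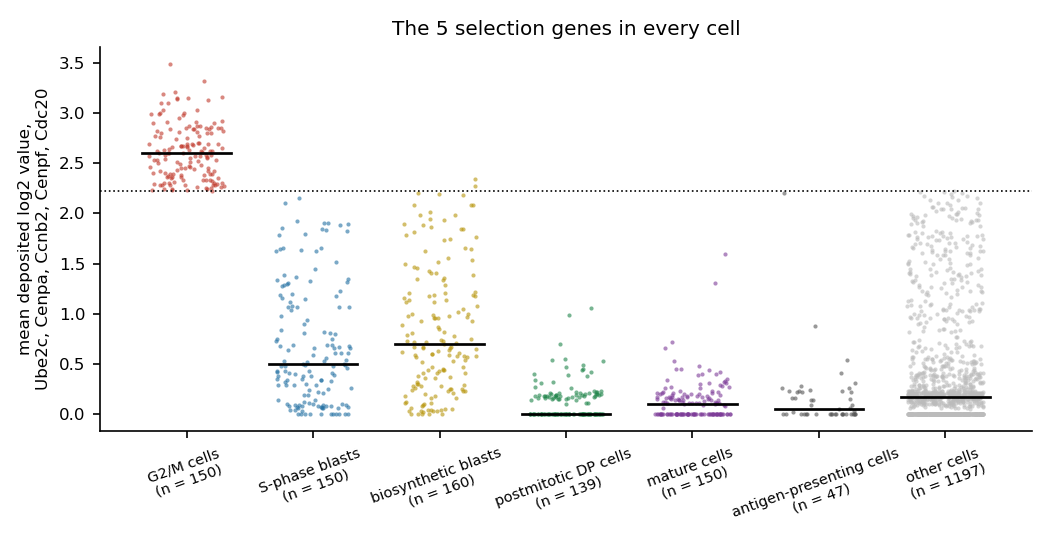
Mean deposited log2 value of the 5 selection genes (y axis) in each of the 1993 cells, by group (x axis). Points are cells, black bars are medians and the dotted line is the lowest member at 2.22; the values above the line define the G2/M cells.

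Among the selection genes, Ube2c had 3.68 ± 0.65 (mean ± SD over the 150 members), from 0.74 to 4.76 with a median of 3.76. Cenpa had 2.75 ± 0.50, from 1.12 to 3.76, and Cenpf had 2.40 ± 0.66, from 0.45 to 3.60. Ccnb2 had 2.25 ± 0.61, from 0.30 to 3.63. Cdc20 had 2.01 ± 0.63, from 0 to 3.38, and was the selection gene that 1 member lacked. These values chose the cells and show nothing further.

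Members were compared with 3 other groups of the same library. S-phase blasts were the 150 remaining cells with the highest mean of Rrm2, Tyms, Pcna, Mcm5 and Dut. Postmitotic DP cells were 139 remaining cells with Cd4 and a CD8 chain above 0 and with Mki67, Top2a, Rrm2, Itm2a, Cd2 and Ccr7 at 0. The third group was the 160 biosynthetic blasts. Mature cells, the 150 remaining cells with the highest mean of Ccr7, Klf2, S1pr1, Il7r and Bcl2, and 47 antigen-presenting cells, remaining cells with H2-Aa, H2-Eb1 and Cd74 above 0, served as checks. In 14 of the 47 the mean of 6 antigen-presentation genes lay within the range of the members, so this gate also held thymocyte-like cells. The other 33, chosen after the values were seen and called strict antigen-presenting cells, are used for background shares, and whether they were free of thymocyte RNA was not tested. Members had a median of 2410 detected genes (at most 4051), close to the 2388 of S-phase blasts. The median was lower in postmitotic DP cells, with at most 2087 genes in a cell, and it was 1334.5 in mature cells, 1443 in strict antigen-presenting cells and 3370.5 in biosynthetic blasts. No barcode occurred more than once, and doublets were not called. No molecule counts were used. In their place stood the step of a gene, its place in the ordered series of different values within 1 cell, which quantile normalization keeps. For comparisons across depths, 1300 steps were drawn at random from each cell. Shares of cells on these values are called shares at equal depth, although only the total of steps was made equal and not molecules or detected genes. 

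The label of DP blasts was checked on the coreceptors and on genes of the DP stage. Cd8b1 was above 0 in 150 of 150 members and Cd8a in 149. Cd4 was above 0 in 116, or 77.3% (69.8 to 83.8%), and all 116 had a CD8 chain. In the other 34 members a CD8 chain was found without Cd4. ISPs and DPblas in which Cd4 was missed cannot be told apart among these 34 cells. Cd4 was above 0 in 3 of 5 members with high mature genes, described at the end, so the 34 also held mature-like cells. At equal depth the share with Cd4 and a CD8 chain was 33.3% (25.9 to 41.5%) in G2/M cells, 22.7% (16.2 to 30.2%) in S-phase blasts and 6.25% (3.04 to 11.2%) in biosynthetic blasts. Among postmitotic DP cells, which were gated on these genes, it was 77.0%. Strict antigen-presenting cells had the pair in 27.3% of cells and, at equal depth, in 12.1% (3.40 to 28.2%), an interval that overlapped that of the members.

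Among genes of neighboring stages, Il2ra and Ccr7 were found in few members and the selection genes Cd2 and Itm2a in more. Il2ra, which marks DN cells, was above 0 in 4 of 150 members, or 2.67% (0.731 to 6.69%), against 1.33% of S-phase blasts and 7.19% of postmitotic DP cells. Cd2, an adhesion receptor, was above 0 in 79 members and Itm2a in 47, and both together in 29, or 19.3%. At equal depth both were found in 3.33% of members (1.09 to 7.61%), 2.67% of S-phase blasts and 26.0% of mature cells. Ccr7, which guides mature thymocytes to the medulla, was above 0 in 12 members (8.00%), with 2.00% at equal depth against 48.0% of mature cells, which were chosen on it. Dntt, the terminal transferase that adds bases at V(D)J junctions, was above 0 in 147 members (98.0%). At equal depth Dntt was found in 82.0% (74.9 to 87.8%) of members, 39.4% (22.9 to 57.9%) of strict antigen-presenting cells and 26.0% of mature cells. Mki67, a marker of cycling cells that the rule did not use, was above 0 in 141 members, or 94.0% (88.9 to 97.2%), and in 25 mature cells (16.7%). At equal depth Mki67 was found in 51.3% of members (43.0 to 59.6%), 48.7% of S-phase blasts and 8.67% of mature cells. On the deposited values the members thus had CD8 chains, Dntt and Mki67 in nearly every cell, and Cd4 in most cells but not in each.

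Markers of other cell types were at a low level in most members. H2-Aa, H2-Eb1 and Cd74 were all above 0 in 3 members, or 2.00% (0.414 to 5.73%), and none of the members held a drawn step of all 3. For 6 antigen-presentation genes the steps at equal depth summed to 0 to 3 per member, against a median of 25 in antigen-presenting cells, and H2-DMb1 was at 0 in all members. Cd79a and Ms4a1, which define B cells, were at 0 in all 150 members, and 8 B cell genes summed to 0 to 7 steps. For 7 macrophage and dendritic cell genes the sum was 0 to 3, with Siglech at 0 in all members. It was 0 to 1 for 3 erythroid genes, 0 to 2 for 4 genes of stroma and epithelium and 0 to 8 for 12 genes of innate-like lymphocytes. The 14 mature single-positive genes reached 0 to 21 steps in members, against 4 to 42 in mature cells. The 13 mitochondrial genes had a mean log2 value of 2.57 ± 0.21 in members, 2.72 ± 0.22 in S-phase blasts and 2.82 ± 0.32 in postmitotic DP cells. Their part in the differences between groups was not tested.

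Against S-phase blasts, which had a like depth, G2/M cells had a higher value of cyclin B1, and by at least 0.5 in mean log2 value 6 of 31 spindle and 4 of 36 kinetochore genes compared were higher and 15 of 56 replication genes were lower. A gene was compared where it was above 0 in at least 20% of the cells of 1 of the groups and not used to select either. Of 4725 such genes, 64 were higher in G2/M cells by at least 0.5, or 1.35% of those compared. A total of 57 were lower by as much, or 1.21%. On thinned values, where differences are smaller, 17 were higher and 7 lower by 0.5. The median difference over all genes was 0.0055. Since the groups were chosen on genes of the same cells, these differences describe them and support nothing. Arl6ip1, an endoplasmic reticulum membrane protein gene, had the highest difference, with 3.28 ± 0.75 in G2/M cells and 1.38 ± 0.97 in S-phase blasts (mean ± SD over 150 cells each). Its median over members was 3.38, from 0 to 5.15, and it was detected in 148 of them. At equal depth Arl6ip1 was found in 93.3% of members and 48.0% of S-phase blasts. It was followed by Tubb4b, Jpt1, Cks2, Ccnb1 and Malat1, with differences of 1.54, 1.26, 1.26, 1.22 and 1.15. Malat1 is a nuclear noncoding RNA, with 6.61 ± 0.70 against 5.47 ± 0.85.

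**Figure D2:**
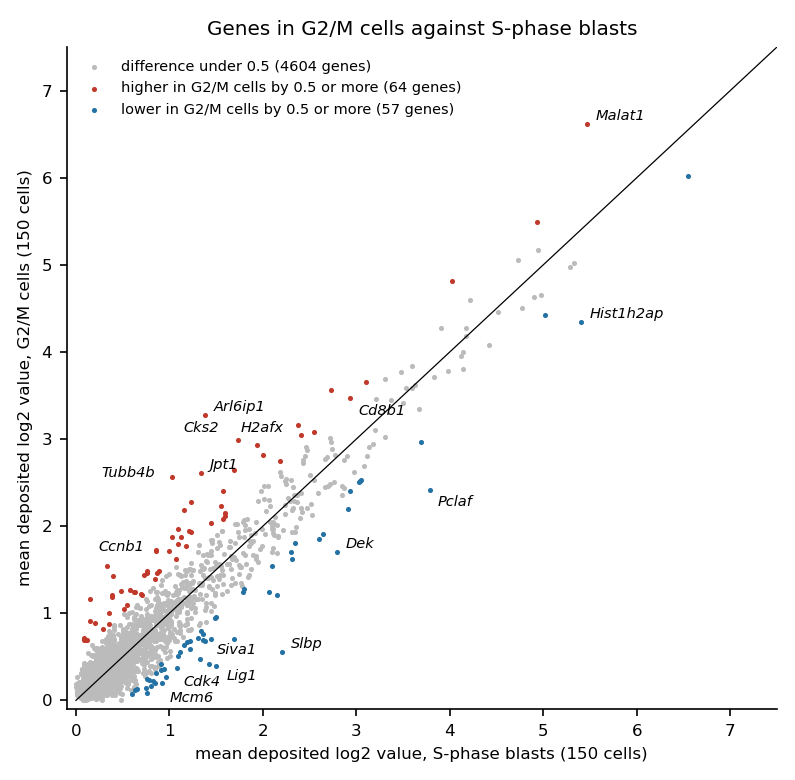
Mean deposited log2 value of each of 4725 genes in S-phase blasts (x axis) and G2/M cells (y axis), with the line of equal values. Colored points are the 64 genes higher and the 57 genes lower in G2/M cells by at least 0.5, and Arl6ip1 and Slbp lie farthest from the line.

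Of 20 genes of mitotic entry compared, 6 were higher by at least 0.5 and 1 was lower, with a median difference of 0.11. Ccnb1, cyclin B1, was above 0 in 147 members, with values from 0 to 3.05 and a median of 1.57. It had a mean of 1.55 ± 0.77, against 0.33 ± 0.55 in S-phase blasts and 0.06 ± 0.22 in postmitotic DP cells. At equal depth Ccnb1 was found in 57.3% (49.0 to 65.4%) of members and 21 of 150 S-phase blasts (8.88 to 20.6%), and these intervals did not overlap. In postmitotic DP cells it was found in 4.32%. Cks2 and Cks1b, small subunits that bind cyclin-dependent kinases, had 2.99 and 2.18 in members and 1.73 and 1.16 in S-phase blasts. Cdk1 had 1.49 ± 0.87 against 0.76 ± 0.73, and it was above 0 in 132 of 150 members. The gene that was lower by over 0.5 was Arpp19, an inhibitor of the phosphatase PP2A-B55 once phosphorylated, with a difference of -0.54.

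Of 31 genes of the spindle and cytokinesis compared, 6 were higher by at least 0.5, none was lower by as much and 29 had a difference above 0, with a median of 0.25. Tpx2, which activates Aurora A on the spindle, had 1.21 ± 0.71 in members and 0.39 ± 0.55 in S-phase blasts. Knstrn, a kinetochore and spindle protein gene, had 0.92 ± 0.70 and 0.15 ± 0.32. Hmmr, which helps to build the spindle, had 0.89 ± 0.66 and 0.20 ± 0.37. At equal depth Tpx2, Knstrn and Hmmr were found in 51.3%, 37.3% and 30.7% of members and in 18.0%, 7.33% and 12.0% of S-phase blasts. For Prc1, which bundles the midzone of the anaphase spindle, the difference was 0.61.

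Tubulin genes differed among themselves. Of 13 genes of tubulins, calmodulins and stathmin compared, 7 were higher by at least 0.5 and none was lower by as much, with a median difference of 0.53. Tubb4b was above 0 in 150 of 150 members, from 1.20 to 3.79, with 2.57 ± 0.57 against 1.03 ± 0.84 in S-phase blasts. Tuba1c had 1.17 ± 0.81 against 0.15 ± 0.35, and at equal depth it was found in 44.0% of members and 10.7% of S-phase blasts. In contrast, Tuba1b had 3.45 ± 0.79 and 3.37 ± 0.59, and Stmn1, which destabilizes microtubules, had 4.18 ± 0.45 and 4.18 ± 0.56. Tubulin genes are close copies, so reads may have been split among them.

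Of 36 kinetochore and checkpoint genes compared, 4 were higher by at least 0.5 and none was lower by as much, with a median of 0.16. They were Bub3, Cdca8, Birc5 and Cenpe. Bub3, of the spindle checkpoint, had 1.97 ± 0.83 in members and 1.09 ± 0.81 in S-phase blasts. Birc5 and Cdca8 encode survivin and borealin of the chromosomal passenger complex. Birc5 was above 0 in 150 members and had 2.82 ± 0.50 against 2.00 ± 0.92, and Cdca8 had 1.71 ± 0.68 against 0.85 ± 0.81. Cenpe, the kinetochore motor, had 1.18 ± 0.73 and 0.39 ± 0.57. Of the 36 genes 7 had differences below 0. Of 29 genes of chromosome condensation and chromatin, 5 were higher by at least 0.5, namely H2afx (1.00), Cdca3 (0.73), Rad21 (0.69), Hmgb2 (0.56) and H2afv (0.55). None was lower by as much, 12 had a difference below 0 and the median was 0.12. Top2a, which untangles sister DNA, had 2.78 ± 0.86 in G2/M cells and 2.66 ± 0.80 in S-phase blasts.

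Genes around the anaphase-promoting complex had a median difference of 0.01 over 20 genes, of which 1 was higher and 1 was lower by at least 0.5. Ube2s, which extends ubiquitin chains after Ube2c, was above 0 in 150 members and had 3.56 ± 0.45 against 2.73 ± 0.92. Fbxo5 encodes Emi1, an inhibitor of the complex in S and G2 phase. It had 0.76 ± 0.70 in members and 1.36 ± 0.73 in S-phase blasts, and at equal depth it was found in 24.7% (18.0 to 32.4%) and 58.7% (50.3 to 66.6%). Over all 5 mitosis lists together, 22 of 136 genes were higher by at least 0.5 and 2 were lower, and the mean over the 145 genes in the table was 0.73 ± 0.12 in members and 0.55 ± 0.16 in S-phase blasts. In 139 of 150 members it was at or above the median of S-phase blasts.

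DNA replication genes went the other way. Of 56 compared, 15 were lower in G2/M cells by at least 0.5, none was higher by as much and 55 had a difference below 0, with a median of -0.30. The mean over 57 genes was 0.20 ± 0.12 in members and 0.55 ± 0.12 in S-phase blasts, and 1 member reached the median of S-phase blasts. S-phase blasts were chosen on genes of the same phase, so this too is a description. Slbp, which binds the stem-loop of histone mRNA, had the lowest difference of all genes, with 0.56 ± 0.68 against 2.21 ± 0.72. Slbp was above 0 in 85 of 150 members and 147 of 150 S-phase blasts. Lig1, the ligase that joins Okazaki fragments, had 0.40 ± 0.55 against 1.50 ± 0.75, and Tipin of the fork protection complex had 0.71 ± 0.69 against 1.69 ± 0.73. Gmnn, geminin, which blocks renewed licensing of origins, had 0.71 ± 0.71 against 1.44 ± 0.69. At equal depth Slbp was found in 24.0% of members and 72.7% of S-phase blasts, Lig1 in 17.3% and 52.0%, Tipin in 24.0% and 58.7% and Mcm6, of the replicative helicase, in 8.00% and 30.7%.

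Histone mRNA was found in many members. The 51 replication-dependent histone genes had a mean of 0.23 ± 0.13 in members and 0.25 ± 0.10 in S-phase blasts, and of 24 compared 1 was lower by at least 0.5, none was higher by as much and the median difference was 0.0036. The exception was Hist1h2ap, an H2A gene, with 4.34 ± 2.31 against 5.40 ± 1.79. Values of Hist1h2ap ran from 0 to 7.14 over members with a median of 5.59, and it was above 0 in 138 members. Histone genes are near-identical copies, so reads may have been split among them. Outside the lists, Pclaf, a PCNA-binding factor, and Dek, a chromatin protein gene, were lower by 1.37 and 1.10, and Siva1, Nap1l1 and Hsp90aa1 by 1.01, 0.94 and 0.82.

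**Figure D3:**
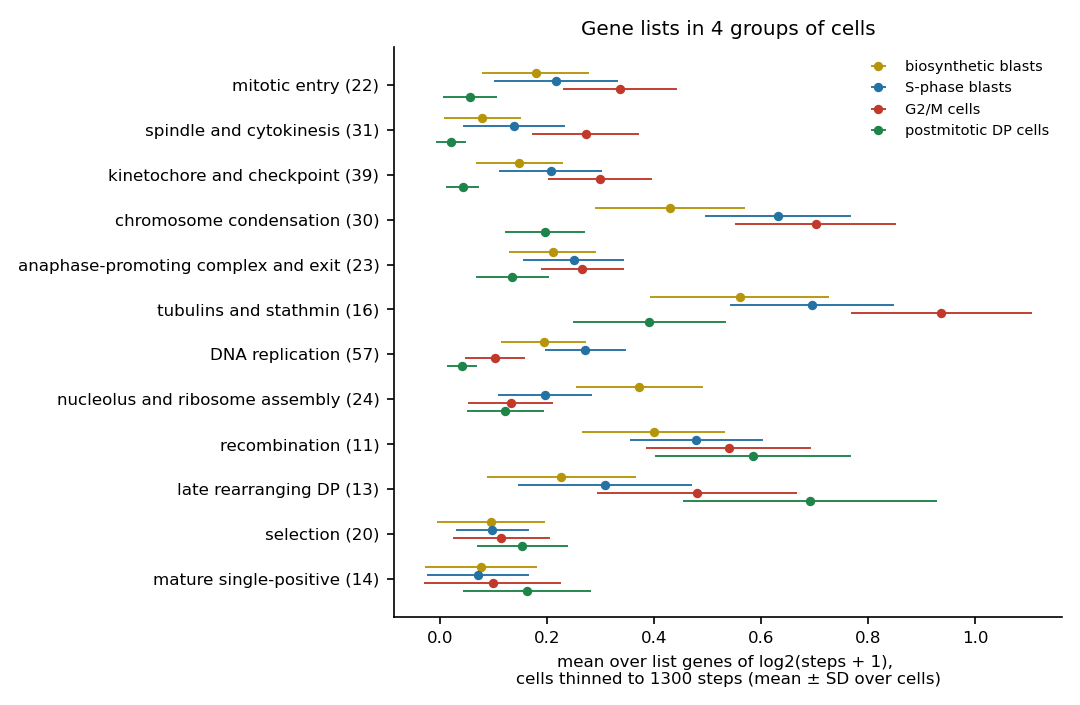
Mean over the genes of 12 lists (number of genes in brackets on the y axis) of log2(steps + 1) with every cell thinned to 1300 steps (x axis), for 4 groups of cells; points are means and bars are SDs over cells. G2/M cells have the highest means of the 5 mitosis lists and of tubulins, are below both other blast groups for DNA replication, and lie between S-phase blasts and postmitotic DP cells for the late rearranging DP list.

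Among cyclins and inhibitors, the D-type cyclin Ccnd3, needed for the expansion of early thymocytes, had 2.82 ± 0.66 in members, 2.77 ± 0.69 in S-phase blasts and 2.51 ± 1.09 in postmitotic DP cells. These means differed by less than the spread over cells. Its partner kinase Cdk4 had 0.47 ± 0.57 in members, 1.33 ± 0.75 in S-phase blasts and 0.31 ± 0.51 in postmitotic DP cells. At equal depth Cdk4 was found in 21.3% (15.1 to 28.8%) of members, 56.7% of S-phase blasts and 23.0% of postmitotic DP cells. Of the 16 genes of D cyclins and cycle exit compared with S-phase blasts, 4 were higher by at least 0.5 and Cdk4 was lower by as much. The 4 were Cdkn2d (0.72), Btg2 (0.71), Btg1 (0.70) and Ccng2 (0.52). Cdkn2d encodes an INK4 inhibitor of Cdk4 and Cdk6. It had 1.72 ± 0.85 in members, 1.00 ± 0.80 in S-phase blasts, 0.72 ± 0.82 in postmitotic DP cells and 0.45 ± 0.56 in biosynthetic blasts. At equal depth Cdkn2d was found in 61.3% (53.0 to 69.2%) of members and in 37.3%, 38.1% and 18.8% of those groups. Ccng2, an unconventional cyclin linked to arrest, was found in 36.7% of members against 21.3%, 21.6% and 9.38%. Thus for both genes the share was higher in members than in each of the 3 other groups. Btg1 and Btg2, antiproliferative genes, instead had values between S-phase blasts and postmitotic DP cells. For Btg1 they were 1.23 ± 0.87, 1.93 ± 0.75 and 2.53 ± 1.14 in S-phase blasts, members and postmitotic DP cells, with shares at equal depth of 44.0%, 65.3% and 84.9%. The inhibitor Cdkn1b had 0.35 in members, 0.33 in S-phase blasts and 0.36 in postmitotic DP cells.

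Of the 3 coreceptor genes, 2 were higher in G2/M cells than in S-phase blasts by at least 0.5, and all 3 were higher than in biosynthetic blasts by as much. Cd8a had 3.05 ± 0.73 in members, 2.41 ± 0.80 in S-phase blasts and 1.42 ± 0.79 in biosynthetic blasts. Cd8b1 had 3.47 ± 0.71, 2.93 ± 0.73 and 1.92 ± 0.66 in the same order. Cd8b1 ran from 0.55 to 4.94 over the members, with a median of 3.51. Cd4 had 0.74 ± 0.68, 0.38 ± 0.53 and 0.18 ± 0.35. Of 8 genes of the TCR and CD3 compared with S-phase blasts, 1 was higher by at least 0.5, namely Cd3g with 2.74 ± 0.52 against 2.18 ± 0.68. Trbc1 had 3.59 ± 2.06 and 3.60 ± 1.63, and Trac had 0.94 ± 0.90 and 0.68 ± 0.70.

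Recombination genes were found in dividing members. Rag1, a subunit of the V(D)J recombinase, was above 0 in 133 of 150 members, or 88.7% (82.5 to 93.3%), with values from 0 to 3.00 and a median of 1.25. It had 1.17 ± 0.80 in members, 0.75 ± 0.75 in S-phase blasts, 0.54 ± 0.59 in biosynthetic blasts and 1.89 ± 1.25 in postmitotic DP cells. At equal depth the shares were 42.7% (34.6 to 51.0%), 40.7% (32.7 to 49.0%), 26.9% (20.2 to 34.4%) and 74.8% (66.8 to 81.8%). Thus the share in members was below that in postmitotic DP cells, and a difference from S-phase blasts was not detectable after thinning. On the deposited values, at like depth, Rag1 was above 0 in 72.7% (64.8 to 79.6%) of S-phase blasts, below the share in members. As a background, Rag1 was found at equal depth in 11.3% (6.74 to 17.5%) of mature cells and in 27.3% (13.3 to 45.5%) of strict antigen-presenting cells. The interval of the members lay above that of mature cells and overlapped that of the latter cells. Rag2 was above 0 in 92 members, and Rag1 with Rag2 in 85, or 56.7% (48.3 to 64.7%), against 32.0% (24.6 to 40.1%) of S-phase blasts. The pair was found at equal depth in 10.0% (5.71 to 16.0%) of members and 5.33% (2.33 to 10.2%) of S-phase blasts, and these intervals overlapped. Among the 47 antigen-presenting cells it was found in 10.6%. At equal depth Rag2 was found in 20.0% of members, 11.3% of S-phase blasts, 23.0% of postmitotic DP cells and 5.33% of mature cells. Over the recombination list, none of 6 genes compared differed from S-phase blasts by 0.5, and the median difference was 0.23.

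Genes of late, rearranging DP cells lay between S-phase blasts and postmitotic DP cells in most cases. Of 13 compared with S-phase blasts, 2 were higher in members by at least 0.5, none was lower by as much and 11 had a difference above 0 (median 0.20). Compared with postmitotic DP cells, 2 of 13 were lower by at least 0.5 and 11 had a difference below 0 (median -0.10). Of all 4362 genes of that comparison, 0.504% were lower and 6.63% higher by as much (median 0.025), and the members were the deeper group. Ccr9, a chemokine receptor, had 0.49 ± 0.61 in S-phase blasts, 1.26 ± 0.91 in members and 1.90 ± 1.18 in postmitotic DP cells. At equal depth Ccr9 was found in 21.3% (15.1 to 28.8%), 53.3% (45.0 to 61.5%) and 77.7% (69.9 to 84.3%) of these cells, and these intervals did not overlap. As a background, it was found in 39.4% (22.9 to 57.9%) of strict antigen-presenting cells, an interval that overlapped that of the members, and in 34.0% of mature cells. Endou was the other gene above 0.5, with 1.59 ± 0.84 in S-phase blasts, 2.12 ± 0.76 in members and 1.91 ± 1.07 in postmitotic DP cells. Aqp11 had 0.82 ± 0.75, 1.29 ± 0.81 and 1.45 ± 1.10 in that order, with 26.7%, 51.3% and 64.0% at equal depth. Themis, which tunes TCR signaling during selection, had 0.69 ± 0.62, 1.06 ± 0.70 and 1.16 ± 0.97, with 22.0%, 48.7% and 56.8%. The list mean was at or above the median of S-phase blasts in 127 of 150 members and at or above that of postmitotic DP cells in 39.

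**Figure D4:**
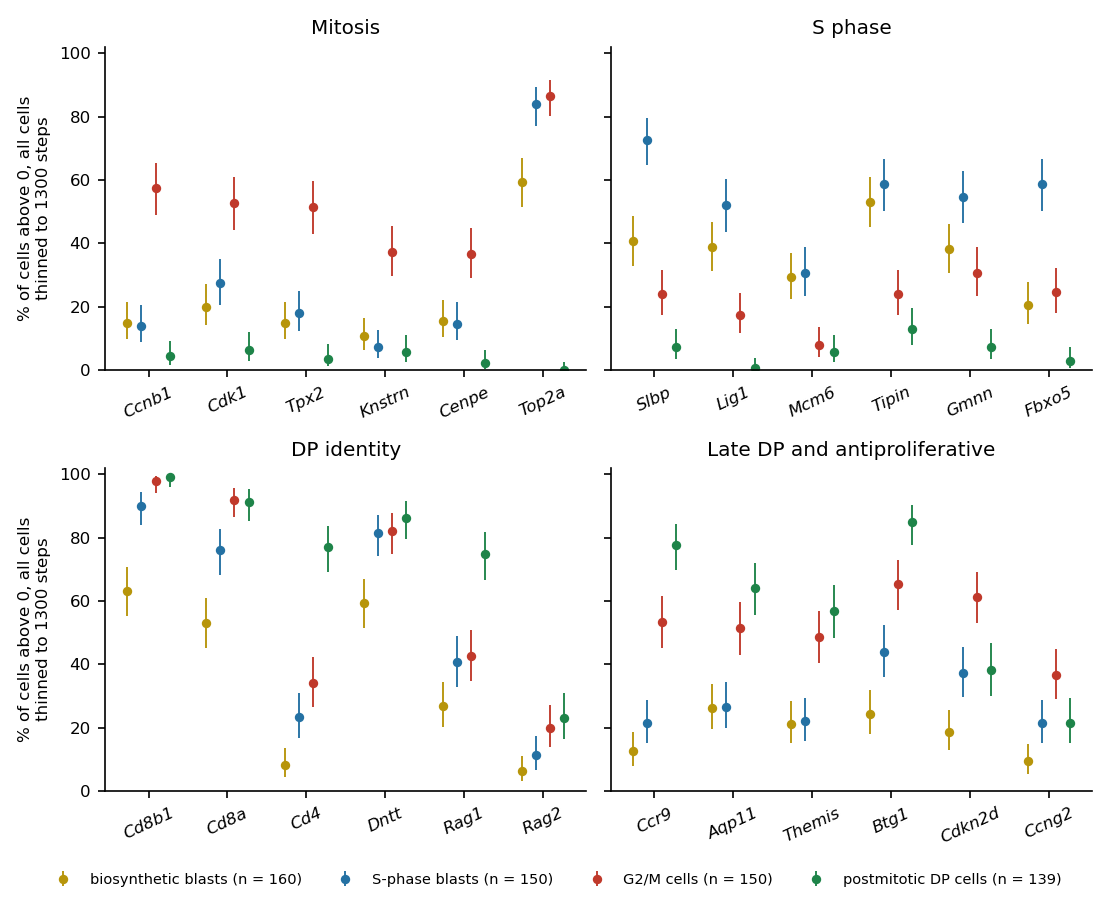
Percent of cells with a gene above 0 after every cell was thinned to 1300 steps (y axis), for 24 genes (x axis) in 4 groups of cells; bars are exact binomial 95% intervals. The mitosis genes except Top2a are found most often in G2/M cells, S-phase genes less often in them than in S-phase blasts, and Ccr9 and Btg1 lie between S-phase blasts and postmitotic DP cells.

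The second comparison set the G2/M cells beside DP cells without the cycle genes of the gate. Of 4362 genes compared, 6.63% were higher in G2/M cells by at least 0.5 and 22 were lower (0.504%). The depth of the groups differed. On thinned values 57 were higher and 18 lower by as much. Hmgb2, a chromatin protein of dividing cells, had 5.49 ± 0.37 in members and 1.08 ± 1.03 in postmitotic DP cells. It was followed by Hist1h2ap (4.34 and 0.49), H2afz (4.63 and 1.54), Stmn1 (4.18 and 1.10) and Tuba1b (3.45 and 0.47). On thinned values the differences of these genes were 2.40, 2.01, 1.91, 1.91 and 1.82. Of 131 mitosis genes compared, 57 were higher by at least 0.5, none was lower by as much and 130 had a difference above 0, with a median of 0.37 against 0.025 over all genes. Members were chosen for G2/M genes and the other group for Mki67, Top2a and Rrm2 at 0, so these differences describe them and support nothing. Of 40 DNA replication genes, 3 were higher by at least 0.5 and 38 had a difference above 0 (median 0.12). The 3 were Gmnn (0.59), Tipin (0.58) and Usp1 (0.54).

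Among the 22 genes that were lower in G2/M cells were Rag1, Ccr9, Btg1 and mitochondrial transcripts. The difference was -0.80 for mt-Co1, -0.79 for the noncoding RNA Zfas1, -0.72 for Rag1, -0.70 for Gm5914 and -0.68 for Tubb2b. It was -0.67 for Fau, -0.65 for mt-Atp6, -0.64 for Ccr9, -0.64 for Mxd4, a partner of Max that opposes Myc, and -0.64 for Eef2. On thinned log2(steps + 1) values the differences were -0.64 for mt-Co1, -0.58 for Zfas1, -0.68 for Rag1, -0.57 for Ccr9 and -0.64 for Btg1. Tubb2b had 0.52 ± 0.64 in S-phase blasts, 1.04 ± 0.95 in members and 1.72 ± 1.37 in postmitotic DP cells. Few differences were found among the thymic selection genes compared. Itm2a and Cd2 could not be compared, since postmitotic DP cells were gated on both at 0. Cd69, induced by TCR signaling, was above 0 in 15 members (10.0%), with 3.33% at equal depth. Cd5 was found at equal depth in 7.33% of members, 6.00% of S-phase blasts and 12.2% of postmitotic DP cells. Of the 7 selection genes compared with postmitotic DP cells, 1 was lower by at least 0.5, namely Cd27 (1.46 against 2.04).

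The third comparison was with biosynthetic blasts, which had been set aside for high Eif5a, Mif, Ran, Npm1 and Ranbp1. Of 5794 genes, 115 were higher in G2/M cells by at least 0.5 (1.98%) and 218 were lower (3.76%). Biosynthetic blasts were deeper, and the median difference over all genes was -0.0017. Members had less of the nucleolus and ribosome assembly genes: 12 of 24 were lower by at least 0.5, none was higher and all 24 had a difference below 0, with a median of -0.48. The list mean was 0.24 ± 0.12 in members, 0.38 ± 0.14 in S-phase blasts, 0.78 ± 0.17 in biosynthetic blasts and 0.18 ± 0.08 in postmitotic DP cells. On thinned values it was 0.13, 0.19, 0.37 and 0.12 in the same order. Biosynthetic blasts were chosen for the genes named above and members came from the remaining cells, so these differences describe the groups and support nothing. The chaperone Hsp90ab1 had the lowest difference, with 2.19 in members and 3.92 in biosynthetic blasts, followed by Nme1 (0.68 and 2.40), Hspe1 (0.71 and 2.34) and Eef1g (1.32 and 2.87). Myc, which drives growth genes, was above 0 in 14 of 150 members (9.33%) and in 105 of 160 biosynthetic blasts (65.6%). At equal depth Myc was found in 0 of 150 members, which limits the share with a step among the 1300 drawn to 2.00% and not the share of cells with Myc, and in 25.0% (18.5 to 32.4%) of biosynthetic blasts. Genes higher in members were Arl6ip1 (2.19), Cd8a (1.63), Malat1 (1.61), Tubb4b (1.57), Cd8b1 (1.55) and H2afx (1.50).

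Neighbors were counted to describe the place of the members among all cells. On the deposited values, each cell was given its 15 nearest cells in 20 principal components of 868 variable genes. The genes of the cell cycle lists and all genes used to choose or gate a group, coreceptors included, had been removed. Of the neighbors of G2/M cells, 65.3% ± 28.7 were other G2/M cells (mean ± SD over 150 cells), although members were 7.53% of all cells. S-phase blasts supplied 2.76% ± 7.09, postmitotic DP cells 0.711% ± 4.31 and cells of no named group 28.1% ± 23.3, all below their shares of all cells (7.53, 6.97 and 60.1%). In 119 members no neighbor was an S-phase blast, and in 142 none was a postmitotic DP cell. The low share of S-phase blasts did not hold on thinned values, where 423 genes were used. There 10.6% ± 13.6 of the neighbors were S-phase blasts, above their share of all cells, 50.2% ± 27.7 were other members, 1.20% ± 4.57 were postmitotic DP cells, and 68 members had no S-phase blast among them. Genes with a cell cycle pattern that are in none of the lists were still among the genes used, so these neighbors are not free of the cycle.

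The members were not uniform. They were ranked by the mean of the 5 S-phase genes, which their selection did not use, and split into 3 subsets of 50 cells, called S-high, S-middle and S-low members, after earlier values were seen. That mean ran from 1.08 to 2.29 in S-high members, from 0.46 to 1.06 in S-middle members and from 0 to 0.45 in S-low members. The median number of detected genes was 2854, 2310 and 2189 in that order, so depth went with the rank and its part was not tested. Of 4363 genes above 0 in at least 20% of the members, 18 were higher in S-low than in S-high members by at least 0.5 (0.413%) and 84 were lower (1.93%). Hist1h2ap had 5.51 ± 1.86, 4.81 ± 2.06 and 2.71 ± 2.04 in S-high, S-middle and S-low members. Pclaf had 3.16 ± 0.49, 2.54 ± 0.70 and 1.55 ± 0.82, and at equal depth it was found in 47, 43 and 33 of 50 cells. Slbp was found in 22, 10 and 4 of 50 cells and Lig1 in 18, 7 and 1. Genes of S phase that were not used for the ranking thus followed it, which describes the ranking and supports nothing further.

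Ccr9, Cd27, Btg1 and Btg2, which are also expressed at later stages, had their highest means in S-low members. For Cd27, Btg1 and Btg2 the difference from S-high members was smaller than the SD over cells in each subset. The mean of the 13 late rearranging DP genes was 0.83 ± 0.17 in S-high, 0.92 ± 0.21 in S-middle and 0.97 ± 0.33 in S-low members. Beside these, the 14 mature single-positive genes had 0.12 ± 0.08, 0.15 ± 0.10 and 0.28 ± 0.33, and the 20 selection genes 0.20 ± 0.08, 0.19 ± 0.13 and 0.28 ± 0.16. All 5 members whose mature list mean reached that of most mature cells were S-low members. Without these 5 cells the lists had 1.04 ± 0.24, 0.18 ± 0.11 and 0.25 ± 0.13 in the other 45, in the same order of lists, and Ccr9 and Cd27 had 1.90 ± 0.94 and 1.94 ± 0.70. Ccr9 had 0.74 ± 0.69, 1.24 ± 0.75 and 1.79 ± 0.96 in S-high, S-middle and S-low members, with 19, 32 and 29 of 50 cells at equal depth. Cd27, a costimulatory receptor, had 1.24 ± 0.73, 1.32 ± 0.84 and 1.83 ± 0.77, with 18, 22 and 35 of 50 cells. For Cd27 the share was 36.0% (22.9 to 50.8%) in S-high and 70.0% (55.4 to 82.1%) in S-low members. Pdcd4, an inhibitor of translation, and Tmsb4x, thymosin β4 that binds actin monomers, were higher in S-low than in S-high members by 0.92 and 1.15, and both were singled out after their values were seen. Btg2 had 1.13 ± 0.73, 1.52 ± 0.93 and 1.66 ± 0.82, and Btg1 had 1.74 ± 0.64, 1.80 ± 0.78 and 2.25 ± 0.74. The mean of the 145 mitosis genes outside the selection was 0.78 ± 0.09, 0.76 ± 0.12 and 0.65 ± 0.10 in S-high, S-middle and S-low members, and on thinned values 0.38 ± 0.06, 0.40 ± 0.08 and 0.34 ± 0.07. On the deposited values each of the 5 mitosis lists was lower in S-low than in S-high members, from 1.42 to 1.17 for chromosome condensation, 0.65 to 0.51 for kinetochore, 0.54 to 0.43 for anaphase-promoting complex, 0.70 to 0.63 for mitotic entry and 0.55 to 0.52 for spindle genes. On thinned values chromosome condensation went from 0.74 to 0.62, kinetochore from 0.30 to 0.26 and anaphase-promoting complex from 0.28 to 0.24. Mitotic entry had 0.33 and spindle genes had 0.26 in both subsets. The mean of the 5 genes that chose the members was 2.46 ± 0.16, 2.63 ± 0.25 and 2.77 ± 0.30 in S-high, S-middle and S-low members. Single genes differed, and Ccnb1 had 1.38 ± 0.68, 1.65 ± 0.80 and 1.61 ± 0.81, whereas Top2a had 2.97 ± 0.76, 2.96 ± 0.76 and 2.40 ± 0.94. Rag1 had 1.09 ± 0.73, 1.17 ± 0.80 and 1.23 ± 0.89 and Cd8b1 3.20 ± 0.53, 3.58 ± 0.45 and 3.63 ± 0.96, and these means differed by less than the spread over cells.

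**Figure D5:**
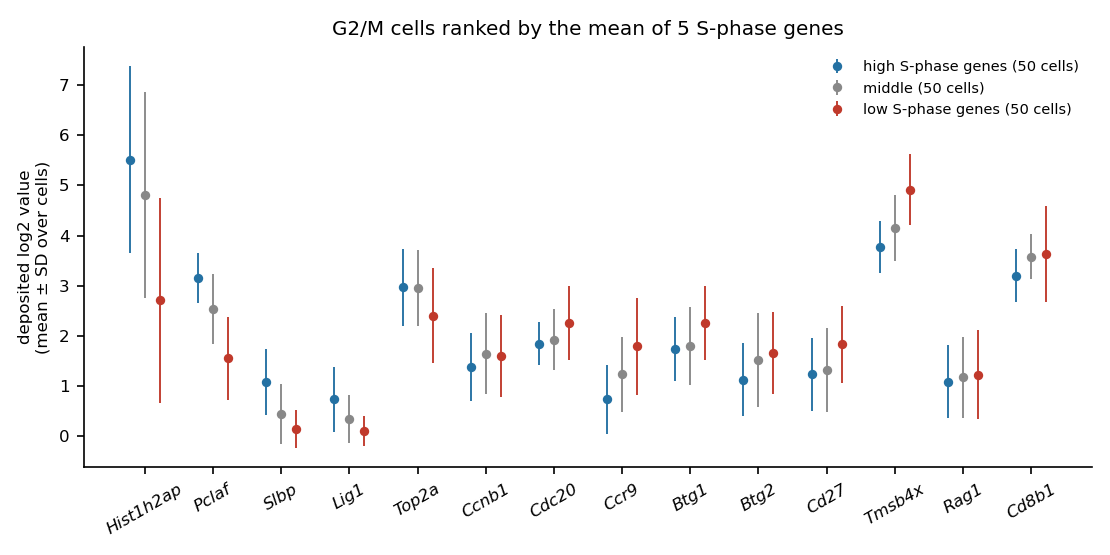
Deposited log2 value (y axis; points are means and bars are SDs over 50 cells) of 14 genes (x axis) in S-high, S-middle and S-low members, ranked by the mean of Rrm2, Tyms, Pcna, Mcm5 and Dut. Hist1h2ap, Pclaf, Slbp and Lig1 have lower and Ccr9, Cd27 and Tmsb4x higher means in S-low than in S-high members, and most bars overlap; Cdc20 is a selection gene.

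Neighbors differed between the subsets. The ranking used the same 5 genes that chose the S-phase blasts, so the shares of S-phase blasts are a description. In S-high members, 7.73% ± 10.6 of neighbors were S-phase blasts, close to their 7.53% of all cells, and 0% were postmitotic DP cells. In S-low members, 0% were S-phase blasts, 1.60% ± 6.81 were postmitotic DP cells and 2.27% ± 8.89 were mature cells, which gave 0% in the other subsets. Both shares were below the 6.97% and 7.53% of these groups among all cells. Without 5 S-low members of high mature single-positive mean, 1.78% ± 7.16 were postmitotic DP cells and 0% were mature cells. On thinned values S-phase blasts supplied 22.3% ± 14.7, 7.47% ± 10.0 and 2.00% ± 4.10 of the neighbors of S-high, S-middle and S-low members, and postmitotic DP cells 0.667% ± 4.71, 0.533% ± 2.27 and 2.40% ± 5.83. Mature cells supplied 2.67% ± 9.62 in S-low members and 0% in the other subsets. These shares rest on few cells in each subset and were not tested.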

How the data were processed

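Thymocytes of male C57BL/6 mice were profiled by droplet scRNA-seq with 3′ V2 chemistry, and the submitters' processing notes name Cell Ranger 1.3.1 and build GRCm38.p5. The deposited table holds log2 values that the authors quantile-normalized, for 8846 genes in 1993 cells, of which 79.7% are 0. The study's filter kept cells with 500 to 4500 genes. More genes were found in 7 cells, none of them a member, and 13 mitochondrial genes were present although their removal was stated. The scATAC-seq samples were not used here.

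Cells were grouped by fixed rules on the deposited values. Depth per cell was read from detected genes and from steps (1356 to 22539 per cell), and cells were thinned to 1300 steps, then read as log2(steps + 1) with a pseudocount of 1. Groups were compared by differences of means for genes above 0 in at least 20% of either group, against a threshold of 0.5. Genes that chose or gated the groups compared were left out. Shares have exact Clopper-Pearson 95% intervals, and a share of 0 was given a limit of 3 cells. With 1 sample no test was possible. The calculation was tested on simulated data. Python 3.11.15, numpy 2.4.6, pandas 2.3.3, scipy 1.17.1 and matplotlib 3.10.9 were used.

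Named genes were the selection genes, up to 4 genes per list with the largest differences, the 15 highest and 15 lowest over all genes in each of the comparisons with S-phase blasts and postmitotic DP cells, and coreceptor and recombination genes. Other genes were named after their values were seen. Members, groups and gene lists were chosen with earlier results of these data known. Alternatives were other numbers of members, selections without 1 gene, thinned cells, other thresholds and other neighbor settings.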

Additional observations from a re-analysis of the deposited data

How the results depend on the processing

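The 11 main results were recomputed under 19 other settings, which gave 144 values. A count was taken as moved beyond 1.5 times its main value, a share outside its interval, and a list or neighbor mean beyond 1 SD over cells, which is wide for neighbors. By this measure 9 moved, and 0 list differences reversed. With thinned cells, on another scale, the genes higher and lower in G2/M cells than in S-phase blasts numbered 17 and 7 in place of 64 and 57, and those higher than in postmitotic DP cells numbered 57, where the full values gave 6.63% of 4362 genes. The DNA replication list then differed from S-phase blasts by -0.17 in place of -0.36, and the mitosis lists by 0.09 in place of 0.19. Neighbors among S-phase blasts were 10.6% in thinned cells and 2.00 to 4.37% under the other settings (main 2.76%), and those among postmitotic DP cells 0 to 1.20% (main 0.711%), with 0% when cell cycle genes were kept. The cause of the shift in thinned cells was not tested. The share of members with Cd4 and a CD8 chain was 33.3% in thinned cells and 43.3% when a value above 1 was required, against 77.3%, and the share with Rag1 was 42.7% and 62.7% against 88.7%. Selections without 1 of the 5 genes shared 135 to 140 of the 150 members. Depth limits low genes such as Rag2 and Myc, and cells of 1 library show no spread between animals. No paired analysis was possible because the scRNA-seq cells form 1 sample. The settings without mature-like members and with neighbors in thinned cells were chosen after seeing the data.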

Other observations

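A few members carried genes of mature thymocytes together with the G2/M genes. In 5 of 150 members, and in 3 of 150 S-phase blasts, the mean of 14 mature single-positive genes reached 0.76, a value that most of the mature cells passed. The median member had 0.13, and 1 member was above the median of mature cells of 1.40. Cd52 had 4.15 ± 0.46 in these 5 members (3.55 to 4.60) and 1.08 ± 0.85 in the other 145, and Ifi27l2a had 4.24 ± 1.24 and 0.19 ± 0.45. The MHC class I genes B2m and H2-K1 had 4.24 and 2.78 against 1.41 and 0.15. The stage genes went the other way, with 0.45 and 2.60 for Dntt, 0.12 and 1.20 for Rag1 and 1.14 and 3.11 for Cd8a. Ube2c had 3.29 ± 0.86 and 3.69 ± 0.64, and Mki67 was above 0 in all 5. Cd52 and Ifi27l2a are genes of the list that chose the 5 cells, and B2m and H2-K1 were singled out after their values were seen. Doublets of a dividing and a mature cell were not called, and their part was not tested.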
